A study of Mus musculus with 6 samples.

Results

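The death receptors and their adaptors are described here as 10 genes: the receptors Fas, Tnfrsf10b, Tnfrsf1a and Tnfrsf1b, the adaptors Fadd, Tradd and Traf2, the kinases Ripk1 and Ripk3, and the regulator Cflar. They were chosen by gene symbol, without use of their measured values, from 22064 gene rows, and all 10 carried values and were among the 12546 genes tested. The RNA came from splenic CD8+ T cells of BALB/c mice that were cultured either with neutrophil extracellular traps at 10 μg/mL (NET, 3 samples) or without them (control, 3 samples). Neutrophil extracellular traps are strands of chromatin studded with granule proteins, thrown out by neutrophils, and those used by the study were collected after stimulation of neutrophils with PMA, a phorbol ester. Both groups are wild-type cells with no transgene. The sources used here do not say whether the 3 samples of a group came from separate mice, so the spread behind each p-value may be technical.

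Death receptors are cell surface proteins of the tumour necrosis factor (TNF) receptor family with an intracellular death domain. Fas, bound by Fas ligand, and the TRAIL receptor Tnfrsf10b recruit Fadd, which brings in caspase-8, and Cflar (c-FLIP), a caspase-8 relative without protease activity, competes for the same complex. TNF receptor 1 (Tnfrsf1a) instead gathers Tradd, Ripk1 and Traf2 at the membrane and drives survival signalling through NF-κB, while a later complex with Fadd and caspase-8, or Ripk1 with Ripk3, can lead to apoptosis or to necroptosis. TNF receptor 2 (Tnfrsf1b) has no death domain, binds Traf2 directly and is well known as a costimulatory receptor on T cells. In CD8+ T cells the Fas route is best known for removing activated cells, and the same cells use Fas ligand to kill targets.

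The promoters of 3 of the 10 genes, Cflar and Tnfrsf1b, which passed the test in opposite directions, and Fas, and that of the ligand gene Tnf are shown because these genes differ in core promoter letters. Each runs from 250 bases before to 50 bases after the annotated start, 5′ to 3′ along the gene, from RefSeq on GRCm38.p6, and capitals mark matches to TATAAA, to GGGCGG (the GC box) or to TGANTCA (the AP-1 motif) on either strand.
Cflar promoter, chr1:58711241-58711540, plus strand: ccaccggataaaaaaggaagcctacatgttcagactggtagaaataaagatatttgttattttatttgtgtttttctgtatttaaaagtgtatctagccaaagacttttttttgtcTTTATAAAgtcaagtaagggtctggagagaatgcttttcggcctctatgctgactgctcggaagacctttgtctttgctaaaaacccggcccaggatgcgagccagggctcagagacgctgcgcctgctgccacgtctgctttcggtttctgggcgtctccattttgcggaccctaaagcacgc
Tnfrsf1b promoter, chr4:145246821-145247120, minus strand: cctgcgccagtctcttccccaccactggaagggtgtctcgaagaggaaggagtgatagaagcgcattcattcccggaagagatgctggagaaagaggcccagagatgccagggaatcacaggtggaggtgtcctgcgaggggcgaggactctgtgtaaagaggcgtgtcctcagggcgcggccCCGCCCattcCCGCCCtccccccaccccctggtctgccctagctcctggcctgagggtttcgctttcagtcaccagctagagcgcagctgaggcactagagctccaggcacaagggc
Fas promoter, chr19:34290409-34290708, plus strand: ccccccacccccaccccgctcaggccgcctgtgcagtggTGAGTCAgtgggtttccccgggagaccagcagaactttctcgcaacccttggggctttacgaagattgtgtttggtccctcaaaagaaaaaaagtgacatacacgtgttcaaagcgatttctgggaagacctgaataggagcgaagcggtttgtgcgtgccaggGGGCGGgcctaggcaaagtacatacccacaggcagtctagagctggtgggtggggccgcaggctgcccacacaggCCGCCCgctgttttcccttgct
Tnf promoter, chr17:35201958-35202257, minus strand: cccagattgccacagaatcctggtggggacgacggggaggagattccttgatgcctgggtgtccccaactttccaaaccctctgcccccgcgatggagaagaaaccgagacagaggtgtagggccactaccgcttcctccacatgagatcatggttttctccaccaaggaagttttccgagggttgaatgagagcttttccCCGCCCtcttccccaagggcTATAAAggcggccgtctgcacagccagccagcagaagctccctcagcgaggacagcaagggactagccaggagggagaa
The Cflar promoter held TATAAA on both strands in overlapping matches that begin at positions -134 and -132 from the start, and its GC content was 45%, against a median of 52.7% over 32851 promoters of the same length. The Tnfrsf1b promoter, with a GC content of 62.7%, had GC boxes at -67 and -57. Fas had the AP-1 motif at -211 and GC boxes at -47 and 29, and Tnf had TATAAA at -29 with a GC box at -49. A promoter was found in the RefSeq table for 8 of the 10 genes, all but Tnfrsf10b and Tradd. Of these 8, 6 held a GC box, against 35.7% of all promoters, 1 held TATAAA, against 13.6%, and 1 held the AP-1 motif, against 7.81%. The NF-κB consensus and the p53 motif were each in 0 of the 8, against 5.8% and 8.36% of all promoters. The 8 are counted by gene, also where a gene has a further promoter window, as Ripk1 does, whereas the percentages count promoters. A match describes letters in the window and is not a binding site.

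The transcripts of the ligands moved much further than those of the receptors. Lta (lymphotoxin alpha) and Tnf, both ligands of the 2 TNF receptors, rose with NET, whereas Fasl (Fas ligand) and Tnfsf10 (TRAIL) fell, so that all 4 ligand genes passed the edgeR quasi-likelihood test. Lta reached 1125, 783 and 931 CPM (estimated counts relative to the TMM-scaled library total) in NET samples 1 to 3, against 49.4, 36.8 and 36.4 in control samples 1 to 3, a 23.2-fold higher level (log2 fold change 4.53 ± 0.18 SE, adjusted p = 9.23e-08). Tnf stood at 186, 160 and 193 CPM in NET samples and at 32.8, 33.6 and 31.2 in control samples, 5.52-fold higher with NET (log2 fold change 2.46 ± 0.10 SE, adjusted p = 1.22e-07). The 2 genes are neighbours on chromosome 17, with 1157 bases between them, and in both no NET sample came near the control range.

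Fasl fell to 0.979, 1.29 and 2.36 CPM in NET samples, against 10.6, 18.0 and 18.7 CPM in control samples (log2 fold change -3.35 ± 0.32 SE, adjusted p = 2.10e-05). These NET values rest on 19 to 45 estimated counts a library, the fewest of the 4 ligands. Tnfsf10 measured 21.3, 24.6 and 26.5 CPM with NET and 48.9, 64.2 and 59.0 CPM in control (log2 fold change -1.25 ± 0.13 SE, adjusted p = 3.43e-05). The ligand of each apoptosis receptor that signals through Fadd was therefore lower with NET, and both ligands of the TNF receptors were higher.

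**Figure D1:**
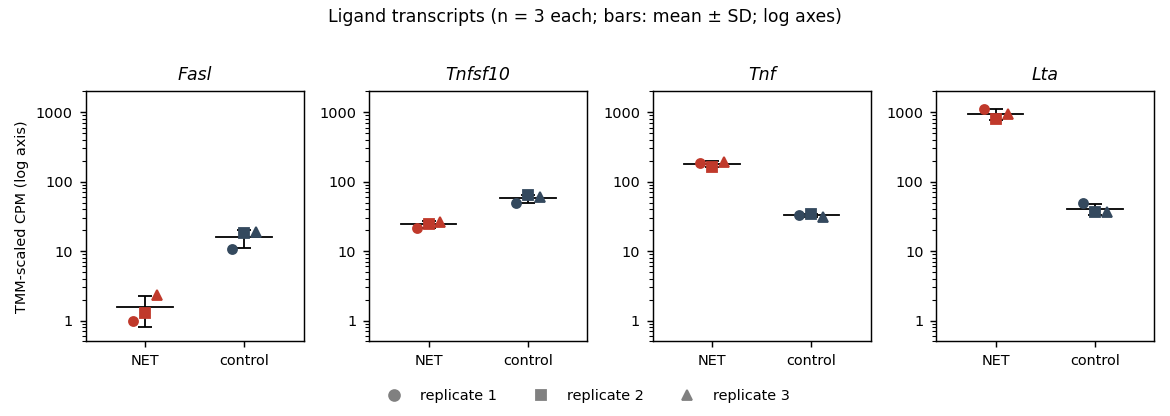
TMM-scaled CPM (log axis) of the ligand genes Fasl, Tnfsf10, Tnf and Lta in each NET sample and each control sample; symbols mark the replicate number, and bars give the mean and SD of 3 samples. No ligand has overlapping groups, and Lta runs from 783 CPM upward with NET against at most 49.4 CPM in control.

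Values are from bulk RNA, in which fewer cells of a type and less RNA per cell cannot be told apart. The labelled cell type was checked with its markers. Cd8a averaged 817 CPM with NET and 1222 CPM in control and Cd3e averaged 201 CPM with NET and 314 CPM in control, while all 4 genes of the CD8 T cell list (Cd3e, Cd3d, Cd8a, Cd8b1) were lower with NET, with a summed level of 1482 to 1677 CPM against 2149 to 2451 CPM. Markers of some other cell types moved in the opposite direction at low levels, whereas those of CD4 and regulatory T cells were mostly lower with NET. All 6 B cell markers were higher with NET (sum 117 to 193 CPM with NET, 27.7 to 35.1 CPM in control), as were 4 of 6 tested macrophage and monocyte markers (85.4 to 99.6 and 51.6 to 77.4 CPM), 3 of 4 tested neutrophil markers (27.5 to 30.5 and 17.7 to 20.5 CPM) and 2 of 4 tested dendritic cell markers, with 1 lower (20.8 to 23.3 and 14.3 to 17.6 CPM). Of 5 CD4 and regulatory T cell markers 3 were lower and 1 higher (129 to 158 CPM with NET, 306 to 400 CPM in control). That sum rests mainly on Ikzf2 (mean 36.9 CPM with NET, 234 CPM in control), while Cd4 averaged 28.4 and 46.3 CPM and Foxp3 10.2 and 15.2 CPM. NK cell markers summed to at most 1.10 CPM with NET and 1.49 CPM in control. The neutrophil genes Ly6g and Retnlg were blank in all 6 libraries. S100a8 averaged 4.29 CPM with NET and 0.123 CPM in control, and S100a9 averaged 2.88 and 0.106 CPM. Camp, too low to be tested, had 4 to 6 estimated counts in NET samples and 0 in control samples. Mpo was also higher (12.5 and 8.48 CPM), and Cxcr2 did not pass (8.21 CPM with NET, 10.5 CPM in control). The part of these cell types in the ligand and receptor values was not tested.

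Among the 10 death receptor and adaptor genes, 2 passed the test as higher with NET (Tnfrsf10b and Cflar), 1 as lower (Tnfrsf1b) and 7 did not pass. Over all genes tested 22.3% were called higher and 22.3% lower at an adjusted p below 0.05, beside 2 and 1 of these 10. With the additional limit of 0.58 on the log2 scale that the study used, 1 gene (Tnfrsf10b) passed as higher and 0 as lower, beside 13.4% higher and 11.9% lower over all genes. NET and control values were fully apart for 5 of the 10 genes, against 54.7% of all genes. The median log2 fold change of the 10 genes was -0.18, against -0.01 for all genes tested.

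**Figure D2:**
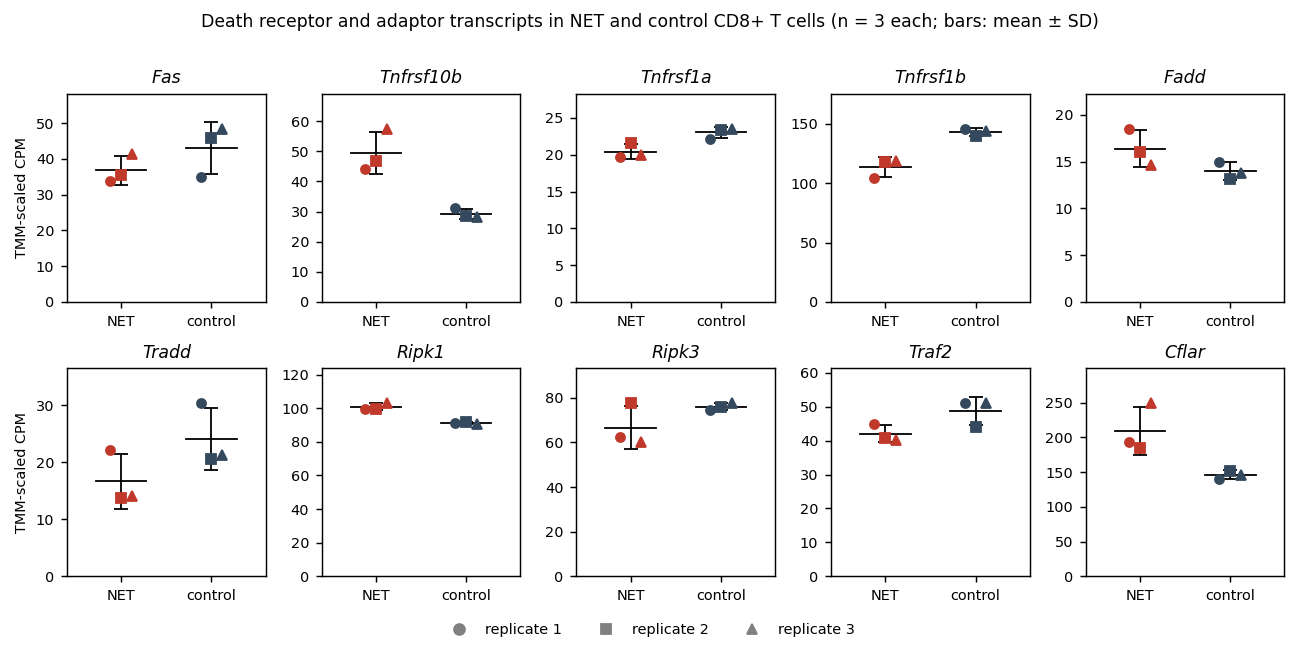
TMM-scaled CPM (axes from 0) of the 10 death receptor and adaptor genes in the 3 NET samples (left of each panel) and the 3 control samples; symbols mark the replicate number, and bars give the mean and SD. Tnfrsf10b and Cflar lie above the control samples in every NET sample, Tnfrsf1b lies below, and in Tradd replicate 1 is the highest of both groups.

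Tnfrsf10b (chr14:69767472-69784411, plus strand, GRCm38 as for all gene positions here), the only TRAIL receptor with a death domain in the mouse, was the 1 receptor of 4 that rose. It stood at 44.3, 46.8 and 57.5 CPM in NET samples, against 31.2, 28.6 and 28.2 CPM in control samples, and every NET sample was above every control sample. The mean was 49.5 ± 7.03 CPM with NET and 29.3 ± 1.63 CPM in control (SD, n = 3 each), which is 1.69-fold higher with NET (log2 fold change 0.76 ± 0.12 SE, edgeR adjusted p = 0.000523). The receptor was thus higher in the same libraries in which the transcript of its ligand Tnfsf10 was lower. It passed in all 17 alternative analyses.

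Fas (chr19:34290666-34327772, plus strand), the receptor of Fas ligand, did not pass. Its level was 33.7, 35.4 and 41.3 CPM with NET and 34.9, 45.9 and 48.4 CPM in control, and the groups overlapped because control sample 1 lay within the NET range. The log2 fold change was -0.23 with a 95% interval of -0.53 to 0.08 (edgeR adjusted p = 0.202). Each NET sample was below the control sample of the same number. With the replicate number as a block the log2 fold change was -0.22 ± 0.08 SE and passed (edgeR adjusted p = 0.0427), and without control sample 1 it was -0.36 (adjusted p = 0.0235). Without control sample 3 it was -0.12 (adjusted p = 0.560), so the size of the Fas difference rested on which control sample was included.

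Of the 2 TNF receptors, 1 passed as lower with NET and the other did not pass. Tnfrsf1b (chr4:145213463-145246870, minus strand), the receptor without a death domain, measured 104, 118 and 119 CPM with NET and 146, 139 and 144 CPM in control. Every NET sample lay below every control sample, and the level fell by 0.33 on the log2 scale (± 0.09 SE, edgeR adjusted p = 0.0112). Tnfrsf1a (chr6:125349362-125362484, plus strand), the death domain receptor of the pair, measured 19.6, 21.6 and 20.0 CPM with NET and 22.2, 23.4 and 23.5 CPM in control. These groups did not overlap either, but the log2 fold change of -0.18 (95% interval -0.40 to 0.04) did not pass (adjusted p = 0.175). On the length-corrected FPKM scale Tnfrsf1b was 2.29, 2.37 and 2.57 times Tnfrsf1a in NET samples and 2.85, 2.58 and 2.65 times in control samples, and the difference of this ratio, -0.16 on the log2 scale, had p = 0.1 in a two-sided exact permutation test, the smallest that 3 against 3 samples allow (0.133 adjusted over 4 ratios).

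Of the adaptors, Tradd (chr8:105258286-105264609, minus strand), which links TNF receptor 1 to Ripk1 and Traf2, had the largest difference of any of the 10 genes on the lower side and also the largest standard error. It stood at 22.2, 13.8 and 14.0 CPM with NET and at 30.4, 20.7 and 21.3 CPM in control. Replicate 1 was the highest sample of both groups, and the groups overlapped only through NET sample 1, which was above control samples 2 and 3. The log2 fold change was -0.53 ± 0.21 SE (95% interval -1.0 to -0.07) and missed the threshold after adjustment over all genes (edgeR adjusted p = 0.0615). For numbers 1 to 3, the log2 level in NET minus that in the control sample of the same number was -0.45, -0.58 and -0.61. The fit with the replicate block gave -0.54 ± 0.09 SE (adjusted p = 0.000449), and DESeq2 without the block also passed (adjusted p = 0.0319). Without NET sample 1 the value was -0.79 (adjusted p = 0.00572), and without both samples numbered 1 it was -0.60 (adjusted p = 0.00308). Without control sample 1 it was -0.33 (adjusted p = 0.194), and over the 6 fits that each left out 1 sample the adjusted p ranged up to 0.215.

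Fadd (chr7:144577318-144582463, minus strand), the adaptor that Fas and Tnfrsf10b share, did not pass. It had 18.5, 16.0 and 14.7 CPM in NET samples and 15.0, 13.2 and 13.8 CPM in control samples. The log2 fold change was 0.23 (95% interval -0.05 to 0.51, adjusted p = 0.168), and it was 0.14 without NET sample 1 (adjusted p = 0.447). An annotated antisense gene, Faddos, overlaps Fadd, and whether counting used strand is not given in the sources used here.

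Traf2 (chr2:25517982-25546940, minus strand), a ubiquitin ligase adaptor of both TNF receptors, gave 44.8, 40.7 and 40.3 CPM with NET and 51.0, 44.1 and 51.1 CPM in control. NET sample 1 and control sample 2 overlapped narrowly. The log2 fold change was -0.22 (95% interval -0.43 to 0.00) without passing (adjusted p = 0.10), and with the replicate block it was -0.21 and passed (edgeR adjusted p = 0.0338). With the block, 2 of the 10 genes were higher and 4 lower (Fas, Tnfrsf1b, Tradd and Traf2), beside 27.8% higher and 28.2% lower over all genes.

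Ripk1 (chr13:34002363-34037147, plus strand), the kinase and scaffold recruited to TNF receptor 1, did not pass. It measured 99.5, 99.8 and 103 CPM with NET and 91.5, 92.1 and 90.9 CPM in control, with no overlap. The log2 fold change was 0.14 (95% interval -0.03 to 0.31, adjusted p = 0.174). Ripk3 (chr14:55784995-55788865, minus strand), the kinase that phosphorylates the necroptosis effector Mlkl, measured 62.3, 77.6 and 60.0 CPM with NET and 74.7, 76.0 and 77.7 CPM in control. NET sample 2 lay inside the control range and the other NET samples below it. The log2 fold change was -0.19 (95% interval -0.43 to 0.05, adjusted p = 0.176), and without NET sample 2 it was -0.30 and passed (edgeR adjusted p = 0.0423), whereas without NET sample 3 it was -0.12 (adjusted p = 0.411). The FPKM ratio of Ripk3 to Ripk1 was 1.58, 1.93 and 1.45 with NET and 2.08, 2.06 and 2.13 in control, lower in every NET sample (log2 difference -0.35, exact permutation p = 0.1, adjusted p = 0.133).

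Cflar (chr1:58711508-58758884, plus strand) passed as higher with NET. It reached 194, 185 and 249 CPM with NET, against 140, 152 and 146 CPM in control, without overlap and with NET sample 3 well above the other NET samples. The mean was 209 ± 34.9 CPM with NET and 146 ± 6.29 CPM in control (SD, n = 3 each), which is 1.43-fold higher with NET (log2 fold change 0.52 ± 0.12 SE, edgeR adjusted p = 0.00548). Cflar gives long and short protein forms by splicing, and 4 of its 13 annotated transcripts are coding, so the gene total does not separate these forms. Casp8 (caspase-8), its partner, was also higher, with a log2 fold change of 0.48 ± 0.09 SE (adjusted p = 0.00224). The FPKM ratio of Cflar to Casp8 was 0.423, 0.417 and 0.569 with NET and 0.470, 0.460 and 0.431 in control. The groups overlapped, with a log2 difference of 0.03 (exact permutation p = 1, adjusted p = 1), which was -0.11 without NET sample 3.

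**Figure D3:**
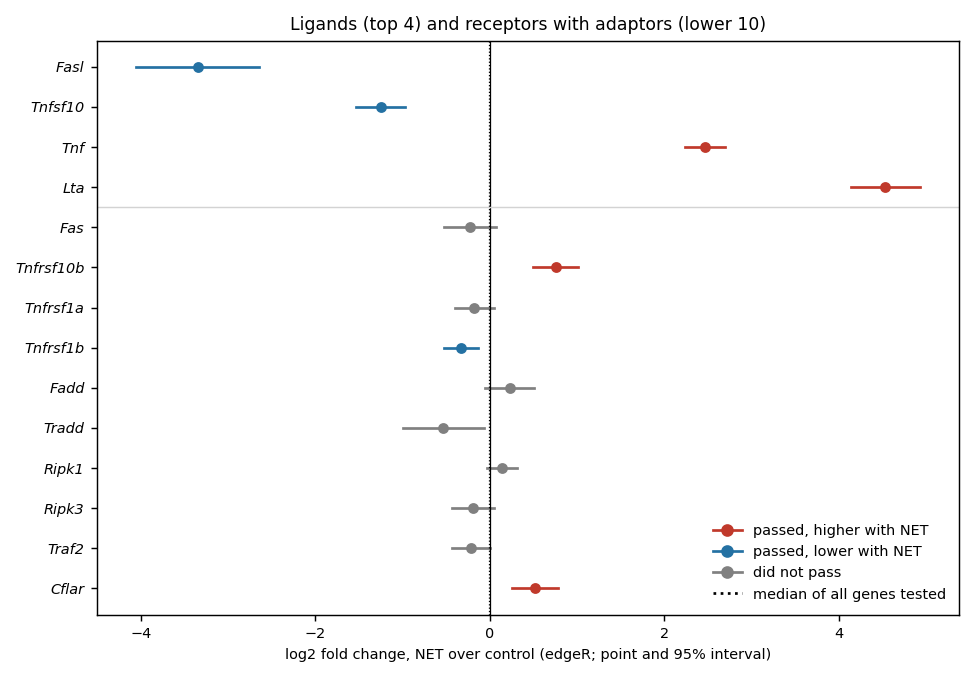
Log2 fold change of NET over control for the 4 ligand genes and the 10 death receptor and adaptor genes, with 95% intervals from edgeR; colour marks genes that passed at an adjusted p below 0.05, and the dotted line is the median of all genes tested (-0.01). Ligands span -3.35 to 4.53, and the receptors and adaptors stay between -0.53 and 0.76.

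The order of the levels within a sample group was read on the FPKM scale, which corrects for length. In NET samples Cflar (36.5 ± 6.16 FPKM) and Ripk3 (36.2 ± 4.95 FPKM) led and overlapped. Fas at 25.7 ± 2.86, Tnfrsf1b at 23.4 ± 1.59 and Ripk1 at 22.0 ± 0.558 FPKM followed, each overlapping the next. Tnfrsf10b (15.9 ± 2.27), Traf2 (13.7 ± 0.839) and Tradd (12.5 ± 3.67) overlapped their neighbours in the same way, and Tnfrsf1a (9.69 ± 0.395) and Fadd (5.81 ± 0.716 FPKM) came last, apart from each other (SD, n = 3 each). In control samples Ripk3 led alone at 40.9 ± 0.327 FPKM, then Fas (30.0 ± 4.50) with Tnfrsf1b (29.1 ± 1.04), and Cflar stood at 24.9 ± 1.73 FPKM in the fourth place. Tnfrsf10b held the sixth place with NET and the ninth in control, at 9.28 ± 0.665 FPKM, below Tnfrsf1a at 10.8 ± 0.188 FPKM. The FPKM of Fas was 45.8, 35.9 and 23.0 times that of Fasl in NET samples and 4.44, 3.37 and 3.47 times in control samples (log2 difference 3.17, exact permutation p = 0.1, adjusted p = 0.133).

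**Figure D4:**
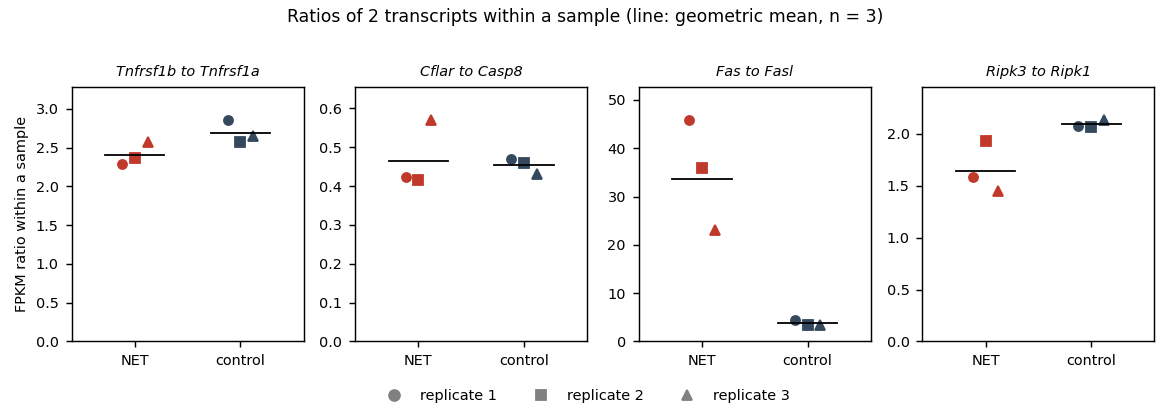
FPKM ratio of 2 transcripts within each NET sample and each control sample (axes from 0); symbols mark the replicate number and lines the geometric mean of 3 samples. The ratio of Fas to Fasl lies at 23.0 or more with NET and at 4.44 or less in control, whereas the ratio of Cflar to Casp8 overlaps.

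Genes that work beside the receptors moved in both directions. Among 9 other receptors of the TNF receptor family (death receptors, decoy receptors and others such as Ltbr), 7 were tested. Of these 7, 4 were higher with NET and 0 lower, with a median log2 fold change of 0.69. These 4 were Tnfrsf11b (osteoprotegerin, a secreted decoy that binds TRAIL; 3.43), Ltbr (the lymphotoxin beta receptor; 1.42), Tnfrsf25 (death receptor 3; 0.84) and Tnfrsf21 (death receptor 6; 0.69). All 4 were low, averaging at most 14.0 CPM with NET. Ltbr is known mainly from stromal and myeloid cells, and the macrophage and monocyte markers given above were higher in the same samples; their part was not tested.

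Among 13 caspases and death domain or death effector domain partners, 4 were higher and 2 lower (median 0.09). Bid, which links caspase-8 to mitochondria, rose by 0.68 on the log2 scale, while Casp2 fell by 0.57 and Daxx by 0.45. The TNF receptor 1 signalling complex, given by 24 ubiquitin and kinase genes, had 5 higher and 5 lower (median -0.13). The kinases Ikbke (-0.75) and Ikbkb (-0.69), which activate NF-κB and interferon signalling, were lower. Tnip1, a partner of the deubiquitinase A20, was higher (0.59), as was Mapkapk2 (0.55), a kinase that restrains Ripk1.

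The TRAF family and its kinases had 2 of 8 higher and 2 lower (median 0.08), with Traf1, an NF-κB-induced partner of Traf2 at TNF receptor 2, at 1.00 and Map3k14 (NIK) at 0.46, against Traf5 at -0.83 and Map3k5 (ASK1) at -0.57. In the necroptosis list of 7 genes Mlkl (0.50) and Ticam1 (0.60), an adaptor that binds Ripk1 and Ripk3, were higher and the nucleic acid sensor Zbp1 was lower (-1.13), with a median of 0.17. Of the genes that release receptors and TNF from the surface, 4 of 4 tested passed. Rhbdf2 (1.30) and its protease Adam17 (0.54) were higher, and Adam10 (-0.39) and the inhibitor Timp3 (-0.72) were lower. Timp3 was low, averaging 2.68 CPM with NET and 4.43 CPM in control, and its groups overlapped. Adam17 is the protease that cleaves TNF and both TNF receptors. The lists are small, and their shares stand beside 22.3% higher and 22.3% lower over all genes.

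**Figure D5:**
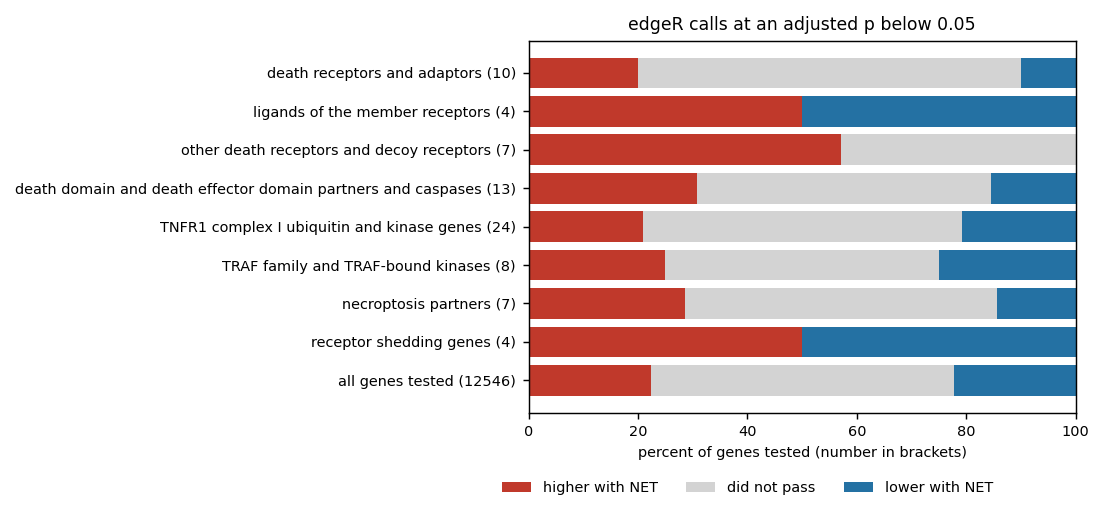
Percent of tested genes called higher with NET, not passed and called lower with NET, for the death receptors and adaptors, 7 related lists and all 12546 genes tested (bottom bar); numbers in brackets are genes tested. The 10 death receptor and adaptor genes have 2 higher and 1 lower, and the ligands 2 higher and 2 lower of 4.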

How the data were processed

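Libraries were poly(A)-selected, strand-marked and paired-end. The authors deposited estimated counts (not all whole numbers; 31.6% of values are whole to 2 decimals) and FPKM per gene. The authors made the FPKM values by dividing counts by length and library size. The length that counts and FPKM imply differed between libraries for some genes. For Cflar it ran from 5.59 kb in NET sample 2 to 6.03 kb in control sample 1. The genome build per the submitters' processing notes is mm10, and the aligner, counter and annotation are not given in the sources used here. Genes blank in all 6 libraries (6459 of 22064 rows) were taken as missing, which left 15605. Libraries held 18696355 to 19425700 estimated counts, and the 10 genes had 243 to 4746 counts a library.

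Counts were rounded, filtered with filterByExpr, TMM-scaled and tested with edgeR (4.0.16) quasi-likelihood F tests, two-sided, with group as the only term and Benjamini-Hochberg adjustment over all 12546 genes at 0.05. Only this edgeR fit was tested on simulated counts. It recovered 29 of 50 simulated 1.5-fold changes, 39 of 50 at 2-fold and 49 of 50 at 4-fold, so small differences can fail to pass. FPKM ratios were compared by exact permutation. Alternatives were RLE, upper quartile and library-total scaling, no filter, at least 10 CPM in at least 3 samples, DESeq2 (1.42.0), limma (3.58.1) on voom weights or on log2(FPKM + 1) and log2(FPKM + 0.1), a fold limit of 0.58, a replicate block, and omitted libraries. Deviations of same-numbered NET and control samples from their group means correlated at 0.56, 0.22 and 0.11, each over 0.1. Only 1 NET sample of 3 correlated best with the control sample of its own number. The sources used here do not say whether same-numbered samples belong together, so a pairing is uncertain. The replicate number was a block in an alternative fit only. No 2 replicates agreed within sampling noise. Gene positions are from GENCODE M21 on GRCm38, the assembly of mm10. Motifs were searched on both strands.

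Named genes are the 10 receptors and adaptors, the 4 ligands, the second gene of each ratio and, per related list, up to 4 with the smallest adjusted p and up to 2 called against the majority. 1 gene that this rule names is not reported here. These genes and lists were chosen with earlier results of these data known.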

Additional observations from a re-analysis of the deposited data

How the results depend on the processing

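Over 17 alternatives, not counting the fold limit of 0.58, the 10 genes gave 170 log2 fold changes. Of these, 0 changed sign, 0 lost the threshold and 9 newly passed it. Tnfrsf10b, Tnfrsf1b and Cflar passed in 17 of 17, with adjusted p up to 0.00343, 0.0484 and 0.0205. The number lower among the 10 genes was 1, and 2 with DESeq2 (2700 lower over all genes), 4 with the replicate block (3534), 3 without both libraries numbered 1 (2933), and 1 to 2 when 1 library was left out (2104 to 2893). The replicate block changed the calls of Fas, Tradd and Traf2 and of no other of the 10 genes; over all genes it called 3484 higher and 3534 lower, and the fit without it 2792 and 2798. With the fold limit of 0.58, 1 of the 10 genes was higher (Tnfrsf10b) and 0 lower, so Cflar and Tnfrsf1b did not pass. Over all genes 1679 were higher and 1488 lower. Fewer calls follow from the construction of this limit. The difference in the ratio of Cflar to Casp8 ranged from -0.11 to 0.11 when 1 library was left out and changed sign without NET sample 3 (-0.11) or control sample 3 (-0.0026); the cause was not tested. The other ratios kept their direction. Scaling moved the median of all genes to at most 0.04.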
